A study of Mus musculus with 8 samples.

Results

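The surface proteins used to sort mammary tumour-initiating cells were followed here at the level of their transcripts. They were Cd24a (CD24), Cd44, Itgb1 (CD29), Itga6 (CD49f), Itgb3 (CD61), Prom1 (CD133), Procr (EPCR), Thy1, Ly6a (Sca-1) and Epcam. Their probes were found by matching the accession printed for each probe to RefSeq transcripts, so a probe with an unmatched accession would be missed. All 10 genes had at least 1 probe, giving 15 of the 41174 probes and 10 of the 32053 features on the array, where a feature is a gene or an unnamed transcript. In 4 genes more than 1 probe was present, and probes of a gene are numbered from the brightest, which stands for the gene unless another is named.

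The arrays held RNA from mammary tumour lines of FVB mice with the polyoma middle T (PyMT) oncogene, and every line had received 50 uM camptothecin, a topoisomerase I poison, for 36 h. The wild-type line WTA carried either LKO1-shSnd1, a hairpin against Snd1 (3 arrays), or the empty LKO1 vector (3 arrays), both under puromycin selection. Snd1 is a nuclease- and Tudor-domain protein, and metadherin (Mtdh) is its binding partner. The Mtdh-knockout line KO2 carried LmPGK-mMtdh-ires2-GFP with wild-type Mtdh (1 array) or with the W391D mutant (1 array), and these cells were sorted for GFP. Line, construct and selection therefore differ together between KO2 and WTA, each genotype is represented by 1 line, and no untreated cells were analysed here. Each sample carried Cy5 and was set against Cy3-labelled RNA pooled from 11 mouse cell lines, so a value below is a log2 ratio of Cy5 to Cy3 unless another scale is named. The reference differs from gene to gene, so ratios and signals are compared between arrays and never between genes.

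Mammary stem cells and the cells that start mammary tumours are enriched by sorting on surface antigens rather than on any single defining gene. CD24 with CD29 or CD49f separates luminal from basal populations, CD61 marks luminal progenitors and the tumour-initiating fraction of some mouse tumour models, and CD44 with low CD24 is the classic human breast cancer profile. CD133, EPCR, THY1 and Sca-1 have each been used to divide such populations further. Sorting reads protein at the cell surface, whereas the arrays read RNA from the whole population. In such bulk samples, fewer cells of a type and less RNA per cell cannot be told apart.

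Promoters of 4 members follow, because the results turn on them and RefSeq's table (GRCm38.p6) holds them: Procr and Prom1, whose brightest probes rose by at least 2-fold in the Snd1 knockdown, and Epcam and Cd44, which fell. RefSeq also holds a promoter of Itgb1, which rose by less, and its motifs are given after the runs. Each run holds the 250 bases before the annotated start, 5′ to 3′ on the gene's strand. Capitals mark matches, on either strand, to any of 5 motifs searched for, which are spelled out after the runs.
Procr chr2:155750967-155751216 (+ strand): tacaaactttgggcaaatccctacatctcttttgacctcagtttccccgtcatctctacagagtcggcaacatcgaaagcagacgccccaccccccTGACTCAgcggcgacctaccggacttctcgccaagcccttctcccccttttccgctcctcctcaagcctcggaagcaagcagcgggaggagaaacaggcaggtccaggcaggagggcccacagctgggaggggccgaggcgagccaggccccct
Prom1 chr5:44101737-44101986 (- strand): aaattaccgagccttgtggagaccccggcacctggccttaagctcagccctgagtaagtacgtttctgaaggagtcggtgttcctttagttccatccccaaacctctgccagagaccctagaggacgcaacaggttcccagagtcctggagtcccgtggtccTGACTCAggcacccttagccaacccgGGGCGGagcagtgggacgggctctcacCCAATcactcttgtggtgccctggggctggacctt
Epcam chr17:87635729-87635978 (+ strand): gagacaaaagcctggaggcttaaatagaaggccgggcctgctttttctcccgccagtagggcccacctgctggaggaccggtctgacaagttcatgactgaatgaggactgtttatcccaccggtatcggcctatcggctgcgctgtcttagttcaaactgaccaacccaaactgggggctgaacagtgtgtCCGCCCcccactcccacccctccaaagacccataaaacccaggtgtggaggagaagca
Cd44 chr2:102901666-102901915 (- strand): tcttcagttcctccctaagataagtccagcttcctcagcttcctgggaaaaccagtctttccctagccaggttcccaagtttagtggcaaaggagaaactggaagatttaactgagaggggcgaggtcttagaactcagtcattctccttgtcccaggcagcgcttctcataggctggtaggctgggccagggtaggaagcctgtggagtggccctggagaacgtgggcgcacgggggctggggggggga
The AP-1 motif, TGACTCA, stood 154 bases before the start in Procr and 88 bases before it in Prom1, and 4.46% of the 32851 promoters of the same length hold them. Prom1 also held a GC box, GGGCGG, 62 bases before the start, as 32.7% of promoters do. The CCAAT box in Prom1 lay 35 bases before the start, and 33.8% of promoters hold that motif. Epcam held a GC box 58 bases before its start, on the opposite strand. The promoter of Itgb1, not printed, held a GC box 151 bases before its start and no AP-1 motif, although Itgb1 was also called higher. A second Prom1 promoter in the table held none of the 5 motifs, and neither did that of Cd44. The TATA box, searched as TATAAA, is in 12.4% of promoters and was in none of the 4 printed. The E box, searched as CACGTG, is in 6.02% of promoters and was likewise in none of them. No 2 of the marked motifs overlap. These matches describe letters and show no binding.

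Between 78.02% and 88.47% of the 43379 non-control spots of an array were well above background in Cy5, and the number of arrays limits the precision. All 15 probes were well above background in Cy5 on the 8 arrays, except both Prom1 probes, which missed it on vector replicate 2, and Thy1 probe 2, which reached it on 5 arrays. Snd1, the hairpin's target, stood at -0.90 ± 0.06 (SE, n = 3 and 3, limma adjusted p = 1.04e-05) against the vector cells, which is 1.86-fold less. The epithelial genes Cdh1 (E-cadherin) and Krt18 (keratin 18) were well above background on all 6 knockdown and vector arrays, and so were Krt19, Krt5 and Muc1. The mean log2 ratios of Cdh1 and Krt18 were 3.62 and 2.25 in the knockdown, 4.15 and 2.76 in the vector cells. Those of Krt19, Krt5 and Muc1 were -3.24, -0.02 and 0.04 in the knockdown and -4.13, -0.19 and 0.11 in the vector cells. These values alone do not establish the identity of the cells. Knockdown and vector replicate 1 shared one slide and the other 4 arrays of WTA shared another. The 2 rescue arrays came from 2 further slides, so slide cannot be told apart from line or from the form of Mtdh in any comparison that uses them. The labels do not say whether replicates were separate cultures, so the p-values reflect no more than the spread among arrays.

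The first question was how marker transcripts differ between drug-treated cells with less Snd1 and cells with the empty vector. Procr rose 3.99-fold and Prom1 rose 2.06-fold, while Ly6a fell and was 4.54-fold higher in the vector cells. Cd24a, Itgb3 and Itgb1 rose by smaller amounts, and Epcam, Cd44 and Itga6 fell. Thy1 did not pass the test. With limma and a Benjamini-Hochberg adjusted p under 0.05, 9 of 10 members were called, 5 higher and 4 lower. The background was wide: 44.8% of the 25674 features tested were called, 23.7% higher and 21.1% lower. A change of at least 2-fold was called in 3 of 10 members and in 3.79% of features, upward in 2 members (2.27% of features) and downward in 1 (1.52%). The count includes Prom1 by its brightest probe, and Prom1 was under 2-fold by probe 2 (0.53) and by the mean of both (0.78). Of the 15 probes fitted each on its own, 12 were called, against 45.7% of all probes tested that way. The members' median absolute log2 fold change was 0.50, beside 0.14 over all features tested, and the median signed change was 0.18, beside 0.02. In 10 of 10 members no value of the knockdown fell among those of the vector cells, against 53.2% of features. Members and lists were chosen with earlier results of these data known. Shares set beside those of all features, here and below, are therefore descriptions and no independent excess.

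**Figure D1:**
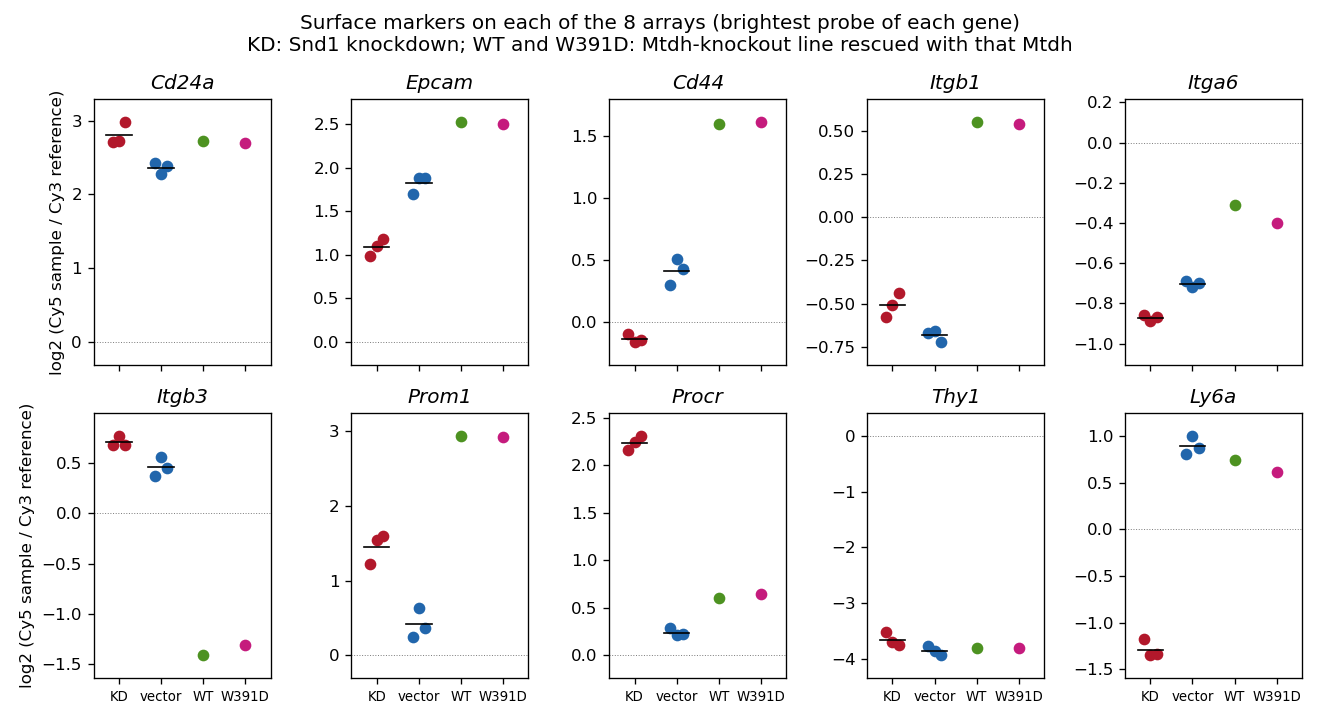
Each panel plots 1 gene's log2 Cy5/Cy3 ratio (brightest probe) on the 8 arrays, as points by group with the mean of 3 arrays as a bar, on an axis of its own. Procr stands highest on the 3 knockdown arrays (2.16 to 2.31) and Ly6a lowest there (-1.18 to -1.35), while Itgb3 is lowest on the 2 rescue arrays (-1.41 and -1.31).

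Procr encodes the endothelial protein C receptor, a membrane protein that presents protein C for activation and that marks a multipotent mammary stem cell population in mice. Its log2 ratio was 2.16, 2.25 and 2.31 with the hairpin and 0.29, 0.21 and 0.22 with the vector. The values lay far apart and did not overlap. The means were 2.24 ± 0.07 and 0.24 ± 0.04 (SD, n = 3 each), a log2 fold change of 2.00 ± 0.05 (SE, limma adjusted p = 8.99e-08). The difference was 1.87 on slide 1 and 2.06 on slide 2. Before normalization the median Cy5 signals were 15889, 28746.8 and 28821.5 in the knockdown against 4625, 7231 and 6999.5 in the vector cells, so the order stood in the raw signal as well. The rescue arrays, at 0.60 and 0.65, lay above all vector arrays and below all knockdown arrays. The named genes whose ratios followed Procr most closely over the 8 arrays were Btg2 (Pearson r 0.9989), Sprr1b (0.9982) and Nradd (0.9982), among 15963 features compared. These coefficients are descriptions over arrays that share groups and a reference.

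Prom1 encodes prominin-1, a pentaspan glycoprotein of membrane protrusions. Its ratio by probe 1 was 1.22, 1.55 and 1.60 with the hairpin and 0.25, 0.63 and 0.37 with the vector. The groups did not overlap, and the log2 fold change was 1.04 ± 0.12 (SE, n = 3 and 3, limma adjusted p = 0.000213). This probe was dim: its Cy5 signal was 175, 276 and 269.5 in the knockdown and 83, 138 and 106 in the vector cells. Its local background was 66, 70 and 68 in the knockdown and 63, 67.5 and 69 in the vector cells. Its Cy3 reference signal was not well above background on any array, and the size of its change differed with the processing. The scanner software's own log ratios gave 2.28 and the Cy5 channel alone gave 1.37, against 0.78 for the mean of both probes. Probe 2, with reference signal well above background on 3 of 8 arrays, rose by 0.53 ± 0.04 (limma adjusted p = 2.1e-05 in the fit of every probe). Both probes thus rose, and by unequal amounts.

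Cd24a encodes the small glycosylphosphatidylinositol-anchored sialoglycoprotein CD24, read as intermediate to high in most mammary epithelial gates. Its ratio was 2.71, 2.73 and 2.98 with the hairpin and 2.43, 2.28 and 2.38 with the vector. The knockdown arrays were all higher, and the change was 0.44 ± 0.08 (SE, limma adjusted p = 0.00221), or 1.36-fold. It was 0.28 on slide 1 and 0.52 on slide 2. Cd24a was bright throughout, with raw Cy5 signals of 37787.8 to 69999.7 over the 8 arrays.

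The 3 integrin subunits among the members moved little and not all one way. Itgb3, the beta3 chain that pairs with alpha-v as a receptor for vitronectin and osteopontin, had ratios of 0.68, 0.77 and 0.68 with the hairpin and 0.37, 0.56 and 0.45 with the vector. It rose by 0.25 ± 0.06 (limma adjusted p = 0.0106). That call was lost with median centring (0.13, adjusted p = 0.166) and in the Cy5 channel alone (0.32, adjusted p = 0.0992). Itgb1, the beta1 chain shared by most collagen and laminin receptors, had ratios of -0.58, -0.51 and -0.44 with the hairpin and -0.67, -0.66 and -0.72 with the vector. It rose by 0.17 ± 0.05 (limma adjusted p = 0.0236), with 0.09 on slide 1 and 0.21 on slide 2. This was the least secure call: Itgb1 probe 2 gave 0.04 ± 0.07 (adjusted p = 0.692) with overlapping groups. Leaving out knockdown replicate 2 or 3 or vector replicate 2 or 3 ended the call (adjusted p 0.0656, 0.0823, 0.0513 and 0.0871). Median centring reduced the Itgb1 change to 0.05 (adjusted p = 0.644).

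Itga6, the alpha6 chain that joins beta1 or beta4 to bind laminin, had ratios of -0.86, -0.89 and -0.87 with the hairpin and -0.69, -0.72 and -0.70 with the vector. The groups were tight and apart, and Itga6 fell by 0.17 on the log2 scale (SE 0.04, limma adjusted p = 0.00984), a 1.12-fold difference that was -0.17 on each slide. Its size was -0.35 with median centring and -0.29 in the Cy5 channel alone.

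Epcam encodes the epithelial cell adhesion molecule, used to split luminal from basal cells. Its ratio was 0.98, 1.10 and 1.18 with the hairpin and 1.70, 1.88 and 1.88 with the vector. Every knockdown array was lower, with a log2 fold change of -0.73 ± 0.07 (limma adjusted p = 6.81e-05), 1.66-fold. The slides gave -0.72 and -0.74.

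Cd44 encodes the main hyaluronan receptor, and its 3 probes could be compared. Probe 1 gave -0.10, -0.16 and -0.15 with the hairpin and 0.30, 0.51 and 0.43 with the vector. Cd44 fell by 0.55 on the log2 scale (SE 0.06, limma adjusted p = 0.00013), 1.46-fold. Probes 2 and 3 gave -0.62 ± 0.05 (adjusted p = 1.37e-05) and -0.44 ± 0.08 (adjusted p = 0.00163) in the fit of every probe. All 3 Cd44 probes therefore fell without overlap between groups. Cd24a rose while Cd44 fell, each in 3 of 3 arrays of the knockdown against every vector array.

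Ly6a encodes Sca-1, a glycosylphosphatidylinositol-anchored protein of the LY6 family and an interferon-inducible gene in many cell types. Its ratio was -1.18, -1.35 and -1.34 with the hairpin and 0.81, 1.00 and 0.87 with the vector. The separation was wide, at -2.18 ± 0.07 (SE, limma adjusted p = 2.16e-07). Raw Cy5 signals were 1471.5, 2008.5 and 1745 in the knockdown and 9542, 15750 and 13513 in the vector cells. The slides gave -1.98 and -2.28. Its closest followers over the 8 arrays were Ly6c2 (Pearson r 0.9996), Erg28 (0.9987) and Cnpy2 (0.9987). Ly6c2 is a close relative of Ly6a, and whether the probes of such similar genes also bound each other's transcripts was not tested.

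Thy1 encodes a glycosylphosphatidylinositol-anchored glycoprotein of fibroblasts, T cells and basal mammary cells. Probe 1 gave -3.52, -3.70 and -3.76 with the hairpin and -3.77, -3.86 and -3.94 with the vector. The lowest knockdown value lay just above the highest vector value, and the change of 0.20 ± 0.07 missed the threshold (limma adjusted p = 0.0567). It passed once replicate numbers were blocked (0.20 ± 0.05, adjusted p = 0.00698), as it did with the slide as a block (adjusted p = 0.00512). It also passed without knockdown replicate 3 (adjusted p = 0.0417) and without vector replicate 1 (adjusted p = 0.04). Thy1 probe 2 gave -0.05 ± 0.21 (adjusted p = 0.86), on signals of 92 to 164.5. The change was 0.05 with median centring (adjusted p = 0.712) and in the Cy5 channel alone (adjusted p = 0.708), and 0.07 for the mean of both probes (adjusted p = 0.712). The Thy1 difference thus varied in size and in call with the processing and with the arrays used.

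**Figure D2:**
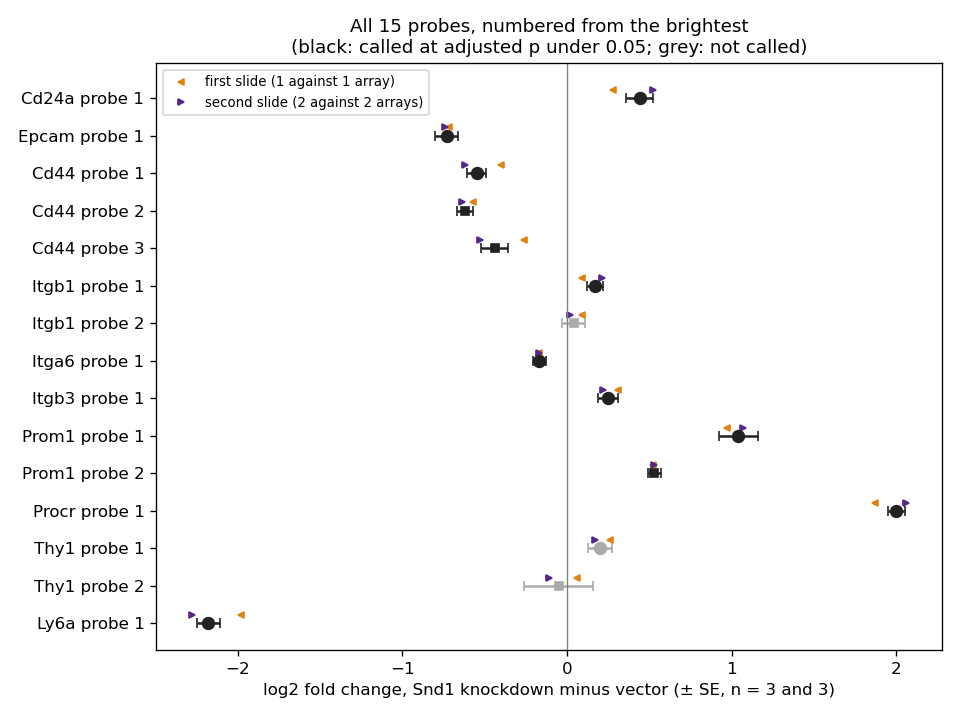
Log2 fold changes (knockdown minus vector, with SE, n = 3 and 3) of the 15 probes, black where called and grey where not, with the differences within each slide as triangles. The 12 called probes share their sign with the gene's other called probes, and the 3 grey ones are Itgb1 probe 2 and both Thy1 probes.

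The next question was what the W391D mutation of Mtdh, which weakens its binding to Snd1, does to the same transcripts in the knockout line. There was 1 array for each form, so the difference has no replicate check and no test. Of 10 members, 0 differed by 2-fold, and 1 of 27019 features did (0.0037%). The W391D array minus the wild-type array gave -0.02 for Cd24a, -0.01 for Epcam, 0.01 for Cd44 and -0.01 for Itgb1. It gave -0.09 for Itga6, 0.10 for Itgb3, -0.02 for Prom1 and 0.05 for Procr. Thy1 differed by 0.01 and Ly6a by -0.13, the widest of the 10. In the scanner software's log ratios Prom1, whose reference signal was dim, was 0.68 higher with W391D. That Ly6a gap was smaller than the distance from the lowest to the highest replicate of either WTA group (-1.35 to -1.18 and 0.81 to 1.00).

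The rescued KO2 cells stood apart from the vector cells of WTA in a different set of markers. Both rescue comparisons and the knockdown comparison use the same 3 vector arrays, so their values are given side by side and not correlated. Prom1 was 5.75-fold higher than the vector mean with wild-type Mtdh and 5.67-fold higher with W391D (2.52 and 2.50 on the log2 scale), at ratios of 2.94 and 2.92. Its second probe gave 1.29 and 1.31. In the scanner software's log ratios the Prom1 differences were 3.20 and 3.88.

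Itgb1 was 2.35-fold and 2.33-fold higher in the 2 rescue arrays, with ratios of 0.55 and 0.54 against a highest vector value of -0.66. Its second probe gave smaller differences, 0.59 and 0.47. Cd44 was 2.29-fold and 2.30-fold higher, with 0.73 and 0.73 by probe 2 and 0.11 and 0.20 by probe 3 on the log2 scale. Cd44 probe 3 reached 0.95 and 1.04 there, beside 0.68 to 0.93 in the vector arrays, so the 3 probes agreed in direction and not in size. With the mean of a gene's probes, Cd44 (0.68 and 0.71) and Itgb1 (0.91 and 0.85) no longer reached 2-fold.

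Itgb3 went the other way. Its ratio was -1.41 and -1.31 in the rescue arrays, against 0.37 to 0.56 in the vector and 0.68 to 0.77 in the knockdown arrays. That is 3.66-fold and 3.42-fold lower than the vector mean. Raw Cy5 signals were 1029 and 989 in the rescue arrays, beside 2715, 4536 and 3744 in the vector arrays. In all, 4 members were past 2-fold on each rescue array, Prom1, Itgb1 and Cd44 above and Itgb3 below, where 3.06% (wild-type) and 2.62% (W391D) of features were. Features past 2-fold above the vector mean made up 2.12% and 1.86%, and those below it 0.939% and 0.763%. Above it on both arrays were 1.6% of features, and below it on both 0.675%.

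The other members differed by less. Epcam was 0.70 and 0.68 above the vector mean on the log2 scale, at 2.52 and 2.50, above every WTA array. Cd24a was 0.36 and 0.34 above it, at 2.72 and 2.70, next to the lowest knockdown values. Procr was 0.36 and 0.41 above the vector mean. Itga6 was 0.40 and 0.31 above it in the ratio, a difference that the Cy5 signal did not show. Ly6a was at -0.15 and -0.29 against it, and Thy1 at 0.05 and 0.06, inside the range of the vector arrays.

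**Figure D3:**
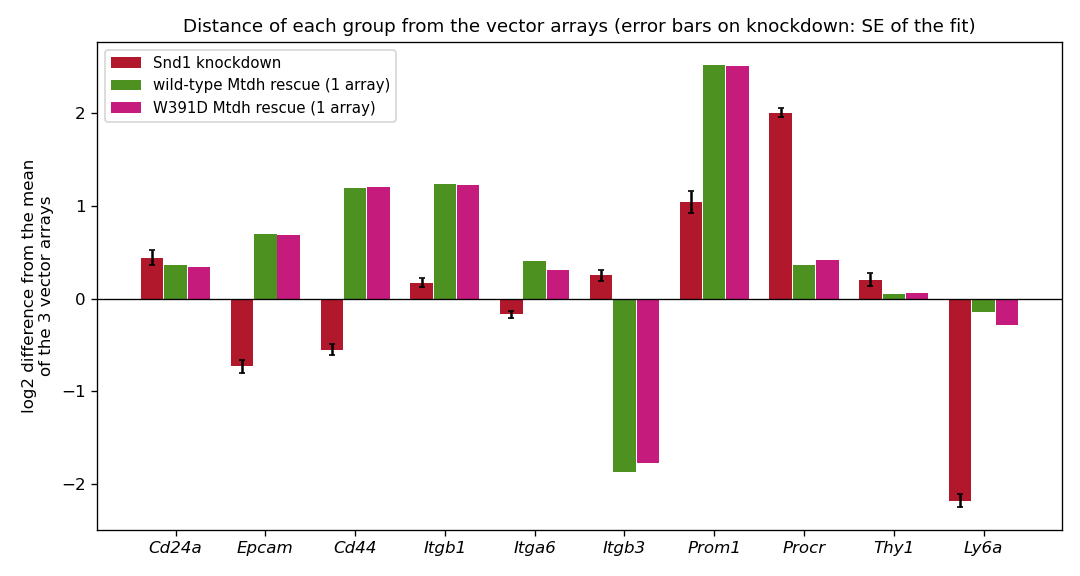
Bars give, for each gene, the log2 difference from the mean of the 3 vector arrays in the knockdown (mean of 3 arrays, with SE) and on each rescue array (1 array, no error). Prom1, Itgb1, Cd44 and Itgb3 are farthest from 0 in the rescue arrays (2.52, 1.23, 1.19 and -1.87 with wild-type Mtdh), Ly6a and Procr in the knockdown (-2.18 and 2.00).

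Read across the groups, the members fell into different orders. Epcam, Cd44 and Itga6 were lowest in the knockdown, higher in the vector cells and highest in the rescue arrays, with no overlap at either step of the ratio. In the normalized log2 Cy5 signal this order held for Epcam and Cd44 and not for Itga6. There the wild-type rescue array of Itga6 (9.99) lay among the vector arrays (10.03, 10.01 and 9.96), and the W391D array (9.83) lay below them. Itgb3 ran the opposite way, lowest in the rescue arrays and highest in the knockdown. Prom1 and Itgb1 were lowest in the vector cells, higher in the knockdown and highest in the rescue arrays, by the ratio of their brightest probes. In the normalized log2 Cy5 signal the Itgb1 knockdown arrays (11.61, 11.49 and 11.59) overlapped the vector arrays (11.51, 11.40 and 11.33). The ratios of Itgb1 probe 2 overlapped between these groups as well. Procr was lowest in the vector cells and highest in the knockdown, with the rescue arrays between. Ly6a was lowest in the knockdown, and the rescue arrays (0.74 and 0.61) lay below the lowest vector array (0.81). For Cd24a the rescue and knockdown arrays, and for Thy1 the rescue and vector arrays, were not separated by more than their spread.

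Genes that work with the members were counted next, from lists drawn up by function with the 10 members left out. In the protein C pathway, where Procr acts, 5 of 10 genes tested rose, 2 fell and 3 were not called, with a median log2 fold change of 0.12. Thbd (thrombomodulin), which binds thrombin so that it can activate protein C, rose by 4.10 ± 0.10 (limma adjusted p = 6.59e-08). S1pr1, the sphingosine-1-phosphate receptor that signals downstream, rose by 1.05 ± 0.05, and Pros1 (protein S, the cofactor of activated protein C) by 0.85 ± 0.08. Sphk1, a kinase that makes sphingosine-1-phosphate, fell by 0.55 on the log2 scale. Proc itself was not called (-0.13 ± 0.07, adjusted p = 0.212).

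Among LY6 and other glycosylphosphatidylinositol-anchored relatives of Ly6a and Thy1, 5 of 17 rose, 5 fell and 7 were not called (median 0.13). Those that fell were all Ly6 genes: Ly6c2 (-2.43 ± 0.08), Ly6c1 (-1.94 ± 0.05), Ly6f (-1.33 ± 0.13), Ly6i (-0.97 ± 0.07) and Ly6e (-0.90 ± 0.08). Ly6f and Ly6e are named although the rule for named genes did not take them. Plaur, the urokinase receptor, rose by 0.52 ± 0.04. Ly6d (0.55, adjusted p = 0.0718), Ly6h (0.23, adjusted p = 0.0739) and Ly6k (0.13, adjusted p = 0.0946) were not called.

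For hyaluronan and Cd44, 5 of 12 genes rose, 6 fell and 1 was not called (median -0.22). The count that rose was 2 with the scanner software's log ratios and with median centring. Hyal1, a hyaluronidase, rose by 2.54 ± 0.07 (limma adjusted p = 1.46e-07), with 2.46 by its other probe, and Has1, a hyaluronan synthase, by 1.57 ± 0.12. Hmmr, a hyaluronan-binding protein of the mitotic spindle, fell by 1.06 on the log2 scale. Esrp1, the splicing factor that controls which Cd44 isoforms epithelial cells make, was at -1.36 ± 0.11, a call lost with the scanner software's log ratios (-0.53, adjusted p = 0.302). Isoforms of Cd44 were not resolved here, because the positions of its 3 probes were not used.

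Among other integrin subunits, 4 of 14 rose, 6 fell and 4 were not called (median -0.01). Itgb7, which pairs with alpha4 or alphaE, rose by 2.96 ± 0.05 (limma adjusted p = 1.31e-08). Itga8, which pairs with beta1, fell by 1.45 on the log2 scale (-1.33 and -0.24 by its other probes), Itgb6 by 1.16 (-0.12 and -1.29 by its others) and Itgb5 by 0.64. Of the integrins' ligands 1 of 14 rose, 10 fell and 3 were not called (median -0.37). The one that rose was Nid1 (nidogen-1, a laminin-binding basement membrane protein), by 3.05 ± 0.08 (adjusted p = 7.4e-08). Col4a1 (type IV collagen) fell by 0.79 on the log2 scale and by 0.20 at its other probe, and the laminin chains Lama5 and Lamb2 fell by 0.75 and 0.62. Of adaptors and tetraspanins that bind integrins, 6 of 18 rose, 6 fell and 6 were not called (median -0.01, and 0.01 with the scanner software's log ratios). The tetraspanin Cd81 rose by 1.00 ± 0.08 and Ptk2 (focal adhesion kinase) by 0.57 ± 0.04. The adaptors Tln2 and Parva fell by 0.88 and 0.79 on the log2 scale, with 0.18 and -0.02 by the other Tln2 probes and -0.14 by the other Parva probe.

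Among partners of Epcam, Cd24a and Prom1, 2 of 12 rose, 5 fell and 5 were not called (median -0.11), and 0 rose with the scanner software's log ratios, where 4 fell. St14 (matriptase), a membrane protease that cleaves EPCAM, fell by 0.98 on the log2 scale (-0.51 by its other probe), and the sheddase Adam17 by 0.66. Siglecg, a receptor for CD24, fell by 0.36. Prom2, the paralogue of Prom1, was at -0.93 ± 0.14 by one probe and -0.10 by the other, and was not called with the scanner software's log ratios (adjusted p = 0.465).

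Other mammary stem and progenitor markers were split, with 5 of 23 higher, 10 lower and 8 not called (median -0.04). Tbx3, a T-box factor of the mammary line, rose by 3.82 ± 0.08 (limma adjusted p = 2.71e-08), and Inhba, an activin subunit, by 0.83 ± 0.05. Nt5e (CD73) fell by 1.37 on the log2 scale (-0.27 by its other probe) and Met, the hepatocyte growth factor receptor, by 0.87 (-0.62 and 0.03 by its others). The share called was 55.6% to 91.7% in the lists of partners, markers and non-leukocyte cell types, beside the 44.8% of all features.

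**Figure D4:**
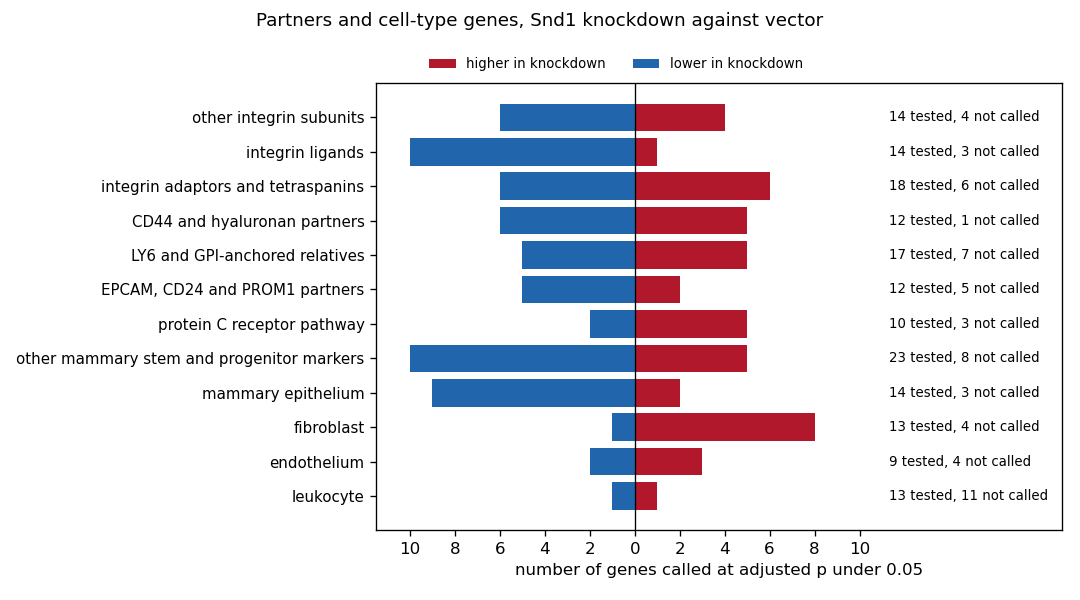
Bars count the genes of each list that rose (right, red) or fell (left, blue) in the knockdown, called at an adjusted p under 0.05, with the number tested and not called beside them. Integrin ligands (1 higher, 10 lower) and mammary epithelium (2 higher, 9 lower) lean to lower, and fibroblast genes (8 higher, 1 lower) to higher.

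Markers of cell types that these antigens also mark were counted in the same contrast. Of mammary epithelial genes 9 of 14 fell, 2 rose and 3 were not called (median -0.52). The count that fell was 7 with the scanner software's log ratios (median -0.36), where Cdh1 and Esrp1 were not called. Elf5, a transcription factor of luminal progenitors, fell by 2.03, Krt14, a basal keratin, by 1.15 and Krt8, a luminal keratin, by 0.86 on the log2 scale, while Elf3 rose by 0.69. The mean normalized Cy5 signal of Krt14 was 1159 in the knockdown and 7023 in the vector cells, a wider gap than the 2.22-fold of its ratio. The summed normalized Cy5 signal of the list was 211624 to 229102 in the knockdown, 283656 to 329822 in the vector arrays and 391016 and 432907 in the rescue arrays. Krt18, Krt8 and Krt7 made up 54.3%, 23.6% and 12% of it in the knockdown and 46.5%, 26.2% and 15.1% in the vector cells. The sum therefore mostly follows these keratins. Krt18 fell by 0.51, a call lost in the Cy5 channel alone (-0.24, limma adjusted p = 0.0962). Of fibroblast genes 8 of 13 rose, 1 fell and 4 were not called (median 0.19). The count that rose was 6 with the scanner software's log ratios and with median centring. It was 5 after scaling between arrays and in the Cy5 channel alone. The list's sums were 19242 to 21928 in the knockdown, 9233 to 10278 in the vector and 18731 and 20601 in the rescue arrays. In the rescue arrays Fbln2 alone made up 65.2% and 68.1% of that sum (28.6% in the vector cells), while Postn, at ratios of -2.97 and -2.81, and Pdgfrb, at -3.53 and -3.89, lay below their vector means of -1.85 and -3.28. In the knockdown Postn rose by 2.72, Pdgfrb by 2.44, Fbln2 by 1.27 and Col1a1 by 2.39 (0.20 and 0.72 by its other probes), whereas Dcn and Lum were not called (0.02 and 0.10). The other rises were smaller: Col1a2 (0.40), Mfap5 (0.36), Pdgfra (0.19) and Col3a1 (0.16), each not called under at least 1 other scaling or channel. Fn1 fell by 0.44. Fap was well above background on 1 of 6 arrays and Dpt on 2.

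Endothelial genes counted 3 higher, 2 lower and 4 not called of 9, with Flt1 at 0.72, Kdr at 0.67, Emcn at -0.30 and Egfl7 at 0.19. Cdh5 was at -0.54 (-0.17 by its other probe). With the scanner software's log ratios 2 were higher and 1 lower, and Kdr and Cdh5 were not called. Egfl7 was not called with median centring or in the Cy5 channel alone. The list's sums were 3474 to 3847 in the knockdown, 2975 to 3174 in the vector and 3113 and 3234 in the rescue arrays. Of the 12 on the array, Erg and Tek were not well above background on any of the 6 arrays and Tie1 on 1. Leukocyte genes counted 1 higher, 1 lower and 11 not called of 13, or 15.4% called, with sums of 3148 to 3424, 2845 to 3403, 3737 and 3539. The 2 called were Csf1r (-0.30) and Cd3e (0.14), neither of them called after scaling between arrays. Ncr1 was above background on 0 of 6 arrays and Itgam on 2. The part of any of these cell types in the changes of Procr, Thy1, Ly6a or the other members was not tested.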

How the data were processed

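Per the labels, RNA from 8 tumour cell samples (Cy5) was hybridised with a common reference (Cy3) on 2-colour Agilent arrays, with no dye swap. Per the file headers, the deposited intensities are unnormalized median signals of spots and their surroundings, read by Feature Extraction 11.0.1.1 (9.5.3.1 in the submitters' processing notes). The software's deposited log10 ratios of Cy5 over Cy3 have had background and dye bias removed, per the file headers. The authors' series value table holds the same ratios as log2, uncentred: each column correlated at 0.9878 to 1 with its own array, with medians of 0.026 to 0.146. The deposited spot flags were used as given.

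Signals were background-corrected (normexp, offset 50) and normalized by loess within each array with limma 3.58.1 in R 4.3.3. The fixed design had foreseen mean spot signals, and the median signals the files hold were used. Control spots (1639 per array) and outlier spots (77 to 142) were left out, none was saturated, and spots of a probe were averaged. Accessions matched to RefSeq named 27668 probes and left 13506 unnamed. The brightest probe stood for a gene. Features whose Cy5 signal cleared background on 3 or more of 6 arrays were tested by lmFit and eBayes with Benjamini-Hochberg adjustment over all features, and called at an adjusted p under 0.05. Every probe was also fitted as its own feature. Normalized Cy5 signals came from loess and Aquantile. The fit was tested on simulated data with 100 features shifted. It recovered 80% of them at a log2 shift of 0.5 and 94% at a shift of 1. Of the features called there, 5.95% were false. Only 100 of 25662 features were shifted, whereas 44.8% were called in the data, so these shares need not hold for the reported calls. Rescue arrays (1 each) had no test.

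Named were the 10 members, Snd1 and Mtdh as a check of the labels, up to 4 called genes per list with the smallest p, and the 3 genes most like the highest and lowest called member. Some further list genes are named to show the limits of a count or a check. Members and lists were chosen with earlier results of these data known. Mtdh was not called (-0.12 ± 0.06, adjusted p = 0.118).

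Same-numbered knockdown and vector arrays deviated together from their group means (r 0.597, 0.325 and 0.338). So did differently numbered arrays of the same slide (0.39 and 0.247), whereas pairs across slides gave -0.377 to -0.499, so the pairing follows the slides. The reported values come from the fit without a block, and the replicate block is an alternative. Alternatives were other background corrections, scalings, channels, filters and probe rules, a replicate or slide block, weighted arrays, a trended robust fit, a stricter threshold and each array left out.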

Additional observations from a re-analysis of the deposited data

How the results depend on the processing

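Over the 21 alternatives to the knockdown comparison, no member's direction reversed, and Cd24a, Cd44, Epcam, Itga6, Ly6a and Procr stayed called in all of them. Prom1 stayed called in the 20 that could measure it, since it fails a filter that asks for all 6 arrays. Their log2 fold changes ranged over 0.36 to 0.52 for Cd24a, -0.66 to -0.50 for Cd44, -0.94 to -0.68 for Epcam, -2.60 to -2.13 for Ly6a, 1.96 to 2.12 for Procr and 0.78 to 2.28 for Prom1. Itgb1 lost its call in 11 alternatives (0.05 to 0.21) and Itgb3 in 3, while Thy1 gained one in 8 (adjusted p 0.00512 to 0.712 over all). Members called higher therefore numbered 3 with median centring, 3 in the Cy5 channel alone and 3 at an adjusted p under 0.01. In the Cy5 channel alone, 3622 features were called higher (46.6% of those called either way), against 6074 (52.8%) in the reported fit. With each array left out in turn, 8 to 10 members were called, 4 to 6 of them higher and 4 lower, and 9962 to 11349 features (5172 to 6045 higher, 4762 to 5371 lower). With the replicate block 10 members (6 higher, 4 lower) and 12904 features (6990 higher, 5914 lower) were called, and no member's call changed except that of Thy1. With the mean of a gene's probes, 2 members passed 2-fold on each rescue array. Dim reference signal limits the size of the Prom1 ratio, and 1 array per rescue form allows no error.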
